A study of Mus musculus with 12 samples.

Results

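The comparison described here asks what 1 µM TFB-TBOA, an inhibitor of the excitatory amino acid transporters (EAATs), changed in the transcriptome of adult mouse dentate gyrus neural stem cells (NSCs) that had been given glutamate. It sets the 3 libraries of cells that received TFB-TBOA and glutamate (TFBTBOA-Glut) against the 3 libraries of cells that received vehicle and glutamate (Veh-Glut), which are 6 of the 12 libraries of the series. Of 50600 gene entries, the 14266 with a mean normalized count of 10 or more over the 12 libraries were tested, and every difference is given as TFBTBOA-Glut minus Veh-Glut.

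The cultures came from wild type C57Bl6J mice 6 weeks old, in lines that pooled the dentate gyri of several animals of a sex, were grown with epidermal and fibroblast growth factors, and were used at passage 4 with 75000 cells plated in each well. In all 4 groups TFB-TBOA or its vehicle was added 15 min before 100 µM glutamate or its vehicle, and RNA was collected at 48 h. Veh-Glut cells had vehicle and then 100 µM glutamate, TFBTBOA-Glut cells had 1 µM TFB-TBOA and then 100 µM glutamate, TFBTBOA-Veh cells had 1 µM TFB-TBOA with no added glutamate, and Veh-Veh cells had both vehicles. The 3 libraries of a group were separate wells, and nothing states that they came from separate cultures or animals, so the p-values measure the spread between wells, which may be technical. The culture line used is not given in the sources read here.

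EAATs are sodium-coupled carriers that move glutamate and aspartate from the extracellular space into glia and other cells, and TFB-TBOA blocks them without being carried itself. Glutamate that enters a cell can feed the synthesis of glutamine, proline, asparagine and other amino acids, and can supply carbon to the tricarboxylic acid cycle. Several of the genes named below belong to pathways that respond to nutrient supply: ATF4, a transcription factor of the integrated stress response, drives amino acid synthesis, amino acid import and tRNA charging genes, and SREBP transcription factors drive sterol and fatty acid synthesis genes. YAP, held back by the Hippo kinases, works with TEAD proteins on matrix and cytoskeletal genes.

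With TFB-TBOA, 11 of 21 sterol synthesis genes, 10 of 20 cytosolic tRNA synthetases and 7 of 22 amino acid synthesis genes tested were lower. So were 7 of 33 mitosis genes and 5 of 19 integrated stress response genes. Higher were 8 of 20 annexin, S100 and caveola genes and 5 of 29 extracellular matrix genes. In the other direction, 3 amino acid synthesis genes and 1 tRNA synthetase were higher, and 1 matrix gene was lower. The other members of these lists did not pass the test. The lists were chosen with earlier results of these data known. In limma on log2(normalized count + 1), 311 genes passed an adjusted p of 0.05, which is 2.18% of the genes tested. Of these, 175 were higher (1.23% of the genes tested) and 136 were lower (0.953%). The log2 fold changes of the 175 higher genes ran from 0.30 to 4.08 with a median of 0.74, and 48 of them were at least 2-fold higher. Those of the 136 lower genes ran from -0.28 to -1.50 with a median of -0.52, and 7 were at least 2-fold lower. The lower genes were the more abundant set, with a median Veh-Glut count of 2742 against 594 for the higher genes and 371 for all genes tested. In all 311 genes the 3 libraries of each group did not overlap, which was also true of 23.2% of the genes tested. The median log2 fold change over all genes tested was 0.01, with 7325 genes positive and 6941 negative. Leaving out 1 library, named here by its group and number, moved the counts widely: 54 higher and 16 lower without Veh-Glut 2, 70 and 21 without Veh-Glut 3, 43 and 19 without TFBTBOA-Glut 1 and 112 and 55 without TFBTBOA-Glut 2, but 218 and 223 without Veh-Glut 1 and 195 and 226 without TFBTBOA-Glut 3. Fold changes are on the log2(count + 1) scale, where the added 1 shrinks those of low genes.

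**Figure D1:**
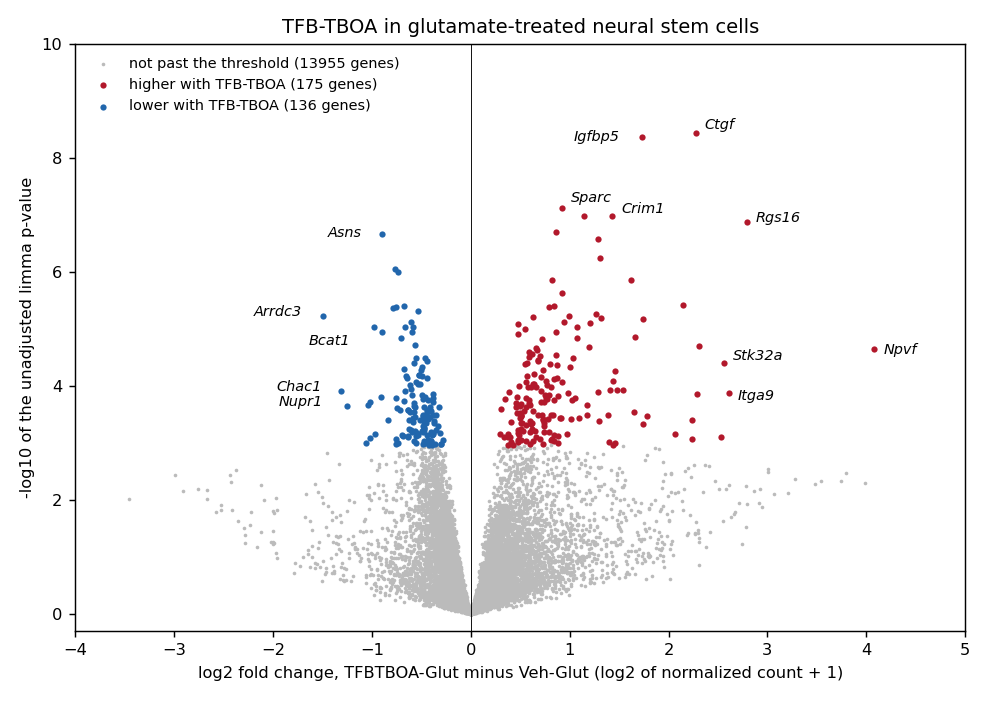
Each point is 1 of the 14266 genes tested. The horizontal axis is the log2 fold change of TFBTBOA-Glut minus Veh-Glut and the vertical axis is -log10 of the unadjusted limma p-value. The 175 genes that passed the threshold and were higher are in red, among them Npvf at 4.08 and Ctgf at 2.27, and the 136 that were lower are in blue, among them Arrdc3 at -1.50 and Asns at -0.90.

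The 6 libraries held between 13064545 and 18372691 reads in genes, as recovered from the steps of the normalized counts, and between 19133 and 20398 genes above 0. NSC markers were abundant: Nes was between 25002 and 28846, Slc1a3 between 28660 and 33235 and Fabp7 between 21927 and 26984 normalized counts in every library, while Prom1 was at or near 0 (no more than 1.85) and Sox2 was between 121 and 273. Of 41 markers of 7 cell types, 25 were above the minimum and none passed the test. Summed counts of the 10 NSC markers were 103799 to 107016 in Veh-Glut and 111548 to 116928 in TFBTBOA-Glut, without overlap. The markers did not move together. Vim had the largest rise in counts (17658 to 21073 against 22277 to 31240), and Nes was also higher without overlap. Egfr was lower without overlap (3973 to 4215 against 3274 to 3603), and the groups overlapped for the other NSC markers, Slc1a3 among them. Sums also did not overlap for the oligodendrocyte lineage markers (1485 to 1860 against 1904 to 2080, nearly all of it Cspg4, with Sox10 and Mog at 0) and for the 4 endothelial markers (1.96 to 14.8 against 25.9 to 52.8). Sums overlapped for 6 astrocyte markers (12396 to 13055 against 12087 to 12479), 6 neuron markers (10757 to 13240 against 11116 to 12628), 5 microglia markers (11.8 to 24.1 against 18.8 to 51.6, with Aif1, Cx3cr1 and Tmem119 at 0) and 4 mural or fibroblast markers (40.8 to 52.0 against 27.8 to 62.9). The part of these cell type sums in the differences below was not tested, and in bulk RNA fewer cells of a type and less RNA per cell cannot be told apart.

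Asns, which makes asparagine from aspartate with glutamine as nitrogen donor, had the smallest p among the lower genes. Its normalized counts were 7179, 8242 and 7439 in the Veh-Glut libraries and 3879.7, 3941 and 4414 in the TFBTBOA-Glut libraries. All 3 TFBTBOA-Glut libraries were below all 3 Veh-Glut libraries, with a log2 fold change of -0.90 ± 0.08 (SE, adjusted p = 0.00038), or 1.87-fold lower. The cells with neither agent had 4412, 5270.2 and 4059 normalized counts, a range that the TFBTBOA-Glut libraries met or fell just short of. The Asns promoter is printed because it holds the letters of an amino acid response element, which were also matched in the promoter windows of 12 other lower genes. Capitals mark matches to the CARE motif (the C/EBP-ATF response element bound by ATF4, TGATGNAAN) and to the antioxidant response element (ARE, TGACNNNGC) on either strand in the 250 bases before the RefSeq start of Asns, chr6:7693210-7693459 on the minus strand of GRCm38.p6.
Asns: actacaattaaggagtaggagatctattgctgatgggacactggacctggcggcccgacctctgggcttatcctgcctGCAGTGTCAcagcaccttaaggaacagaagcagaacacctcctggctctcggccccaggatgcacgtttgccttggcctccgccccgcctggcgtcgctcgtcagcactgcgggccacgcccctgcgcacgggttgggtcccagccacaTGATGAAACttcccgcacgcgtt
The CARE match reads TGATGAAAC and begins 23 bases before the start, and the ARE match lies 172 bases before it on the opposite strand. A match describes the letters and does not show a bound factor.

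RefSeq promoter windows of 250 bases before and 50 after each start were held for 106 of the 136 lower genes, 132 of the 175 higher genes and 10244 of all genes with a symbol of their own, some with more than 1 start. Both strands were searched, and a stretch could count for more than 1 motif. The CARE letters were in 13 of 131 promoter entries of lower genes (9.92%), 6 of 191 entries of higher genes (3.14%) and 281 of 13165 entries of all genes (2.13%). The lower genes with a match were Asns, Chac1, Nupr1, Pck2, Pycr1, the tRNA synthetases Aars, Gars, Tars and Yars, and also Idi1, Prps1, Pus7 and Tbc1d15. The CCAAT letters were in 50.4% of entries of lower genes, 33.5% of entries of higher genes and 38.3% of all. GGAATG, the TEAD motif, was in 18.8% of entries of higher genes, 9.16% of entries of lower genes and 12% of all. The AP-1 site TGANTCA was in 7.33% of entries of higher genes, 5.34% of entries of lower genes and 4.85% of all. The sterol regulatory element TCACNCCAC was rare, in 0.524% of entries of higher genes, 0.763% of entries of lower genes and 1.17% of all. The E-box CACGTG (10.5% higher, 12.2% lower, 9.96% all) and the ARE (12.6%, 14.5% and 14%) were at shares nearer to those of all promoters. None of these shares was tested.

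Amino acid synthesis moved in both directions. Of 22 genes tested on that list, 7 were lower and 3 were higher, 45.5% of the list, and the list's median log2 fold change was -0.08 beside 0.01 for all genes. The lower genes included both proline enzymes that work on glutamate-derived carbon. Aldh18a1, which commits glutamate to proline, had counts of 4009, 4032 and 4147 in the Veh-Glut libraries and 2392, 2233 and 2540.0 in the TFBTBOA-Glut libraries, a log2 fold change of -0.77 ± 0.08 (SE, adjusted p = 0.00116). The groups were well apart, with little spread within either. Pycr1, the last step of proline synthesis, changed by -0.90 ± 0.12 (SE, adjusted p = 0.00412), and Bcat1, the cytosolic branched-chain aminotransferase that forms glutamate, by -0.98 ± 0.13 (SE, adjusted p = 0.00372). Bcat1 counts were 1427, 1586 and 1767 in the Veh-Glut libraries and 778, 699.8 and 951 in the TFBTBOA-Glut libraries, with no overlap. The serine enzymes Psph (-0.63) and Psat1 (-0.35) and the alanine aminotransferase Gpt2 (-0.43) made up the rest of the lower genes.

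The 3 amino acid enzymes that went the other way act on glutamine, the transsulfuration route and the urea cycle. Glul, glutamine synthetase, had counts of 1056, 1081 and 1013 in the Veh-Glut libraries and 1415, 1556 and 1509.6 in the TFBTBOA-Glut libraries. Every inhibitor-treated library was higher, by 0.51 ± 0.10 (SE, adjusted p = 0.0207) on the log2 scale. Cbs, which opens transsulfuration, rose by 0.74 ± 0.14 (SE, adjusted p = 0.02), and Asl, argininosuccinate lyase, by 0.73 ± 0.17 (SE, adjusted p = 0.0499). Without Veh-Glut 2, Veh-Glut 3, TFBTBOA-Glut 1 or TFBTBOA-Glut 2 none of these 3 rises was called, and 4, 4, 4 and 6 of the falls were. Asns, Aldh18a1 and Bcat1 kept their call whichever library was left out.

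The mitochondrial one-carbon enzymes Shmt2 and Mthfd2 were lower. Shmt2, which splits serine to charge folate in mitochondria, had counts of 5962, 5606 and 5498 in the Veh-Glut libraries and 3246, 3647 and 3396 in the TFBTBOA-Glut libraries. Its log2 fold change was -0.73 ± 0.08 (SE, adjusted p = 0.00119), and the TFBTBOA-Glut libraries lay among or below the Veh-Veh libraries (4062, 4284 and 3485). Mthfd2, the next mitochondrial folate enzyme, had 3050.2, 3126 and 2886 in the Veh-Glut libraries and 1944, 1910.2 and 1806 in the TFBTBOA-Glut libraries. That is a log2 fold change of -0.68 ± 0.08 (SE, adjusted p = 0.00295) with no overlap. All 13 folate enzymes tested had a negative fold change, with a median of -0.30, but only these 2 (15.4% of the list) passed the test. Mthfd1l, the mitochondrial partner enzyme, had a log2 fold change of -0.36 (adjusted p = 0.0753, limma).

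Cytosolic tRNA synthetases charge tRNA for protein synthesis. Of 20 tested, 10 were lower and 1 was higher, 55.0% of the list, and the median log2 fold change was -0.38. Lars, the leucine enzyme, had counts of 4273, 5218 and 4443 in the Veh-Glut libraries and 2588, 2823 and 2831 in the TFBTBOA-Glut libraries. The groups did not overlap and the TFBTBOA-Glut libraries also lay below all 3 Veh-Veh libraries (3095, 3117 and 3143), a log2 fold change of -0.75 ± 0.09 (SE, adjusted p = 0.00295). Nars (-0.60 ± 0.08, adjusted p = 0.00363) and Gars (-0.58 ± 0.08, adjusted p = 0.00372), the asparagine and glycine enzymes, followed, with Yars, Tars, Aars, Mars, Eprs, Cars and Vars between -0.60 and -0.39. Qars, the glutamine enzyme, was the exception. Its counts were 717, 725 and 709 in the Veh-Glut libraries and 999.7, 1022 and 1044 in the TFBTBOA-Glut libraries, a rise of 0.51 ± 0.10 (SE, adjusted p = 0.026). Left without Veh-Glut 2, Veh-Glut 3 or TFBTBOA-Glut 1 the list had 4, 6 and 4 lower members and Qars was not called, nor was it without TFBTBOA-Glut 2.

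Of 19 integrated stress response genes tested, 5 were lower and none was higher (26.3% of the list, median -0.36). Chac1, a glutathione-degrading enzyme, had counts of 178, 168 and 221 in the Veh-Glut libraries and 71.1, 94.1 and 63.4 in the TFBTBOA-Glut libraries. The highest TFBTBOA-Glut library was well below the lowest Veh-Glut library, and the log2 fold change was -1.31 ± 0.23 (SE, adjusted p = 0.0165), or 2.48-fold lower. Nupr1, a small stress-induced nuclear protein, had 225, 197 and 155 in the Veh-Glut libraries and 74.3, 99.8 and 67.2 in the TFBTBOA-Glut libraries, a log2 fold change of -1.25 ± 0.24 (SE, adjusted p = 0.0218). Eif4ebp1, the translation repressor 4E-BP1, changed by -0.78 ± 0.10 (SE, adjusted p = 0.00297), Pck2, mitochondrial phosphoenolpyruvate carboxykinase, by -0.71 ± 0.10 (SE, adjusted p = 0.00473), and Xpot, which exports tRNA from the nucleus, by -0.57 ± 0.11 (SE, adjusted p = 0.0205). Chac1 lost its call without Veh-Glut 2, Veh-Glut 3 or TFBTBOA-Glut 1, and Nupr1 lost it without Veh-Glut 1, Veh-Glut 2 or TFBTBOA-Glut 1. The list then had 4, 2, 3 and 2 lower members without Veh-Glut 1, 2 and 3 and TFBTBOA-Glut 1.

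Amino acid carriers split by gene. Of 22 tested, 4 were lower and 2 were higher (27.3%, median -0.29). Slc7a5, the light chain of the large neutral amino acid exchanger LAT1, had counts of 9284, 12421 and 11004 in the Veh-Glut libraries and 6204, 6645 and 7585 in the TFBTBOA-Glut libraries. Its groups did not overlap and its log2 fold change was -0.67 ± 0.11 (SE, adjusted p = 0.01). Its heavy chain Slc3a2 changed by -0.37 ± 0.08 (SE, adjusted p = 0.0299), the cationic carrier Slc7a1 by -0.58 ± 0.09 (SE, adjusted p = 0.00885) and the GABA carrier Slc6a11 by -0.62 ± 0.12 (SE, adjusted p = 0.0246). Slc6a6, the taurine carrier, went the other way, with counts of 201, 205 and 309.5 in the Veh-Glut libraries and 783, 652 and 738 in the TFBTBOA-Glut libraries. That is 3.08-fold higher, a log2 fold change of 1.62 ± 0.18 (SE, adjusted p = 0.0014), and it kept its call whichever library was left out. Slc38a2, a sodium-coupled neutral amino acid carrier, rose by 0.38 ± 0.08 (SE, adjusted p = 0.0425) but lost its call when any 1 of the 6 libraries was left out. The number of lower carriers was 0 without Veh-Glut 2 or TFBTBOA-Glut 1 and 1 without Veh-Glut 3.

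None of the EAAT genes, whose products TFB-TBOA blocks, passed the test. Slc1a3 (EAAT1), the most abundant of them, had counts of 30533, 33235 and 33060.5 in the Veh-Glut libraries and 30709, 28660.2 and 32484 in the TFBTBOA-Glut libraries. The groups overlapped, with a log2 fold change of -0.08 ± 0.07 (SE, adjusted p = 0.572). Slc1a2 (EAAT2) had 348, 274 and 216 in the Veh-Glut libraries and 314, 295 and 347 in the TFBTBOA-Glut libraries, also overlapping, with 0.21 ± 0.19 (SE, adjusted p = 0.579). Slc1a1 (EAAT3) was the only one whose groups did not overlap, at 39.3, 51.7 and 47.3 in the Veh-Glut libraries and 91.5, 110.1 and 72.0 in the TFBTBOA-Glut libraries, and its log2 fold change was 0.96 ± 0.28 (SE, adjusted p = 0.101). Slc1a6 (EAAT4) was at 25.5, 16.9 and 49.1 in the Veh-Glut libraries and 53.9, 39.0 and 40.3 in the TFBTBOA-Glut libraries, with 0.64 ± 0.42 (SE, adjusted p = 0.445). For Slc1a7 (EAAT5) 1 of the 6 libraries was above 0, at 0.817, and it was below the minimum for testing.

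Of 32 receptors for glutamate and GABA on the list, 24 were tested and 1 was called (4.17%, beside 2.18% of all genes tested, median 0.03). This was Gabra2, the alpha 2 subunit of the GABA-A receptor, with counts of 140.4, 116 and 227 in the Veh-Glut libraries and 377, 361 and 397 in the TFBTBOA-Glut libraries. The lowest TFBTBOA-Glut library exceeded the highest Veh-Glut library, with a log2 fold change of 1.28 ± 0.23 (SE, adjusted p = 0.0165), or 2.43-fold, although the call was lost without Veh-Glut 2 or TFBTBOA-Glut 1. Grm5, the metabotropic receptor mGluR5, had 4056, 5513 and 5052 in the Veh-Glut libraries and 3219.7, 3462 and 3885 in the TFBTBOA-Glut libraries (log2 fold change -0.46, adjusted p = 0.0649 in limma). Gabbr2 was low, at 27.5, 7.38 and 7.41 in the Veh-Glut libraries and 74.3, 52.8 and 32.6 in the TFBTBOA-Glut libraries, with 2.03 (adjusted p = 0.0814 in limma).

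Of 21 sterol synthesis genes tested, 11 were lower and none was higher, 52.4% of the list, with a median log2 fold change of -0.38, and 18 of the 21 had groups that did not overlap in the lower direction against 12% of all genes. Hmgcs1, which makes the HMG-CoA that enters the mevalonate route, had counts of 17416, 18851 and 18962 in the Veh-Glut libraries and 12349, 12301 and 13444 in the TFBTBOA-Glut libraries. Each group was tight and they were far apart, a log2 fold change of -0.54 ± 0.07 (SE, adjusted p = 0.0032). The Veh-Veh libraries had 12528, 12004 and 13646, and all 3 TFBTBOA-Glut libraries were within that range. Msmo1, a C-4 methylsterol oxidase, went from 8484, 8409 and 8564 to 5951, 6452 and 6377, a log2 fold change of -0.44 ± 0.07 (SE, adjusted p = 0.00834).

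Idi1, isopentenyl diphosphate isomerase, was the called sterol gene with the largest fall. Its counts were 4856, 5798 and 5797 in the Veh-Glut libraries and 3080.0, 3446 and 4006 in the TFBTBOA-Glut libraries, and its log2 fold change was -0.65 ± 0.11 (SE, adjusted p = 0.0124). Its promoter is shown as that of the sterol gene that fell most. Capitals mark the CARE match, 182 bases before the start on the opposite strand, and 2 CCAAT matches, 45 and 14 bases before it on the opposite strand, in chr13:8885356-8885605, plus strand, GRCm38.p6.
Idi1: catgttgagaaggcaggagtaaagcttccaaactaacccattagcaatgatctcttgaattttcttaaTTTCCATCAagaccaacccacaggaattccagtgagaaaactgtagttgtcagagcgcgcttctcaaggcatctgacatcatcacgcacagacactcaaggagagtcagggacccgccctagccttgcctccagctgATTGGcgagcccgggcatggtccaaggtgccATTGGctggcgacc
No sterol regulatory element of the letters searched was in this window. Other called sterol genes were the decarboxylase Mvd (-0.48), squalene synthase Fdft1 (-0.38), lanosterol synthase Lss (-0.62), lanosterol demethylase Cyp51 (-0.31), and Lbr (-0.61), Sc5d (-0.53) and Dhcr7 (-0.38), enzymes of the later sterol steps.

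The count of lower sterol genes rested on particular libraries. It was 1 without Veh-Glut 2, without Veh-Glut 3 or without TFBTBOA-Glut 1, and 10, 7 and 11 without the other 3. Hmgcs1 was called whichever library was left out, and the list's median stayed between -0.43 and -0.37. Among 15 genes of SREBP control and sterol uptake only Insig1, which holds SREBP's escort protein in the endoplasmic reticulum, passed the test (6.67%, median 0.03). It had counts of 5660.5, 5927 and 6297 in the Veh-Glut libraries and 4324, 3893 and 4433 in the TFBTBOA-Glut libraries, a log2 fold change of -0.50 ± 0.08 (SE, adjusted p = 0.0104), and lost its call without Veh-Glut 2, Veh-Glut 3 or TFBTBOA-Glut 1. The sterol carrier Stard4 had a log2 fold change of -0.50 ± 0.12 (SE, adjusted p = 0.0603).

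Of 16 fatty acid synthesis genes tested, 15 had a negative fold change (median -0.31), as did 6941 of all 14266 genes tested. In the lower direction 13 of the 16 did not overlap, against 12% of all genes, yet 1 was called (6.25%, beside 2.18% of all genes). This was Aacs, which turns acetoacetate into acetoacetyl-CoA, with counts of 4232, 4241 and 4648 in the Veh-Glut libraries and 3493, 2942 and 3524 in the TFBTBOA-Glut libraries and a log2 fold change of -0.40 ± 0.09 (SE, adjusted p = 0.0469). It lost its call when any library other than TFBTBOA-Glut 3 was left out, while 4 genes of the list were called without Veh-Glut 1 and 3 without TFBTBOA-Glut 3. DESeq2 on recovered reads called 6 of the 16 lower, the replicate block 5, a single fit over all 12 libraries 4 and edgeR with TMM 0. Fasn, fatty acid synthase, had counts of 16909.7, 22475 and 19939 in the Veh-Glut libraries and 14809, 14715 and 17050.0 in the TFBTBOA-Glut libraries. The lowest Veh-Glut library lay below the highest TFBTBOA-Glut library, and the log2 fold change was -0.34 ± 0.10 (SE, adjusted p = 0.0982) in limma. Fasn passed under DESeq2 (adjusted p = 0.0388), under the replicate block (0.0449 in limma) and without Veh-Glut 1 (0.0242 in limma), and its adjusted p was highest with no minimum (0.513 in limma). Scd2, a stearoyl-CoA desaturase, had -0.30 ± 0.08 (SE, adjusted p = 0.0775).

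**Figure D2:**
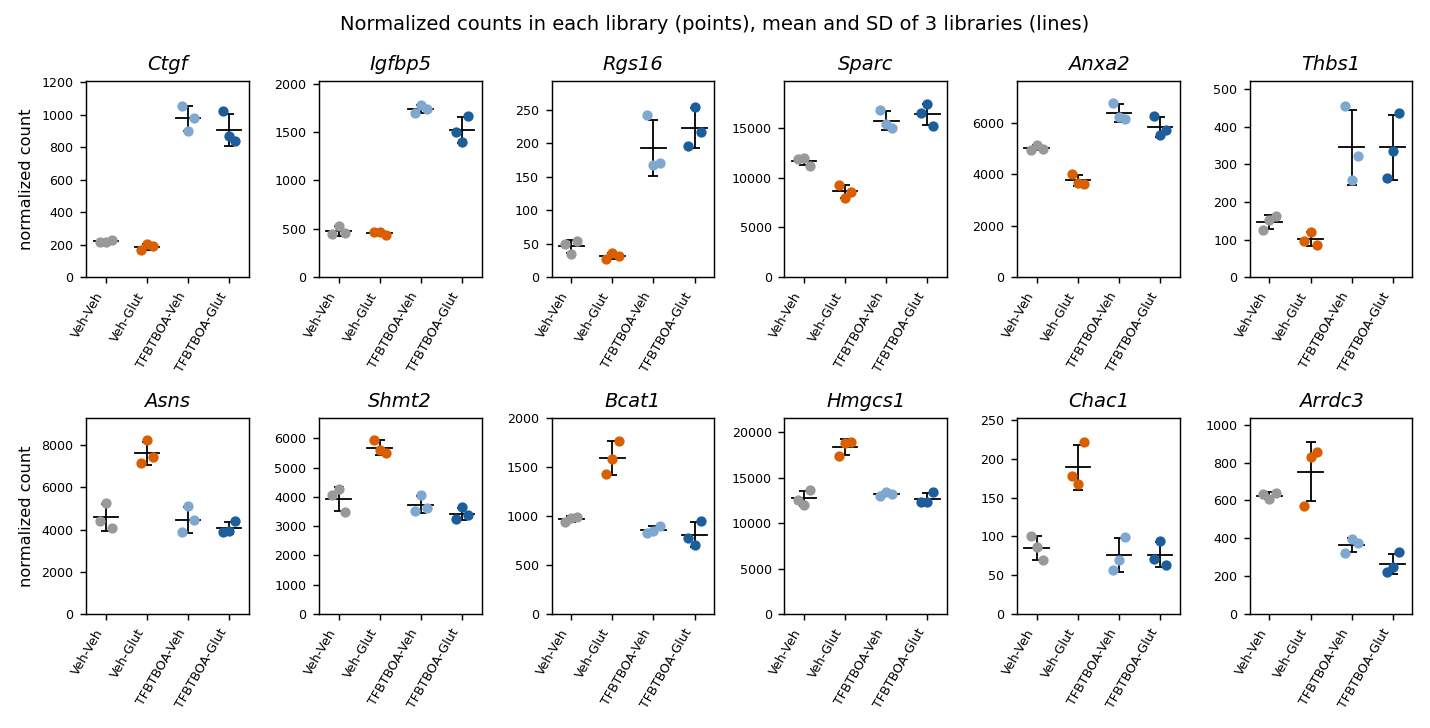
Normalized counts of 12 genes in all 12 libraries (points), with the mean and SD of the 3 libraries of each group (lines), on axes that start at 0. In the upper row the TFBTBOA-Glut libraries are above the Veh-Glut libraries for Ctgf, Igfbp5, Rgs16, Sparc, Anxa2 and Thbs1, and in the lower row they are below them for Asns, Shmt2, Bcat1, Hmgcs1, Chac1 and Arrdc3.

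Genes of cell division had small fold changes of 1 sign. Of 33 mitosis genes tested, all 33 had a negative fold change and 7 were called (21.2%), with a median log2 fold change of -0.33 and the lowest at -0.56. Ccnb1, cyclin B1, had counts of 8434, 8088 and 8583 in the Veh-Glut libraries and 6575, 6068 and 6614 in the TFBTBOA-Glut libraries. Every TFBTBOA-Glut library was lower, and the log2 fold change was -0.38 ± 0.07 (SE, adjusted p = 0.0187). Kif15, a spindle kinesin, changed by -0.56 ± 0.11 (SE, adjusted p = 0.0218) and Aspm, a spindle pole protein, by -0.47 ± 0.09 (SE, adjusted p = 0.0218), and the other called genes were Top2a, Ncapd2, Cdc20 and Bub1b. No mitosis gene was called without Veh-Glut 2, without Veh-Glut 3 or without TFBTBOA-Glut 1, while 7, 3 and 9 were without the other 3. DESeq2 on recovered reads called 20 of the 33, a single fit over all 12 libraries 19, the replicate block 12 and edgeR with TMM 6. The 33 genes made up 0.722% to 0.750% of the counts of a Veh-Glut library and 0.591% to 0.613% of those of a TFBTBOA-Glut library.

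DNA replication genes had a median log2 fold change of -0.27, with 30 of 31 negative and 3 called (9.68%). The called genes were Pold1 (-0.58 ± 0.12, adjusted p = 0.0297) and Pold2 (-0.47 ± 0.08, adjusted p = 0.0187), subunits of DNA polymerase delta, and Orc5 (-0.48 ± 0.10, adjusted p = 0.0324) of the origin recognition complex. Pold1 had counts of 3326, 3582 and 3569 in the Veh-Glut libraries and 2342, 1943 and 2803 in the TFBTBOA-Glut libraries, with no overlap. Ribosome biogenesis had 28 of 29 negative, a median of -0.32 and 4 called (13.8%). They were Nop58, a core protein of box C/D ribonucleoproteins (-0.41 ± 0.08, adjusted p = 0.0218), Wdr43 (-0.49 ± 0.11, adjusted p = 0.0374) and Heatr1 (-0.48 ± 0.11, adjusted p = 0.0499) of the small subunit processome, and Rrp12 (-0.70 ± 0.15, adjusted p = 0.0406). DESeq2 called 12 replication and 13 biogenesis genes lower, a single fit over all 12 libraries 11 and 11, and edgeR with TMM 3 and 3. Without TFBTBOA-Glut 3 the counts were 6 and 8. In both lists no gene was called without Veh-Glut 2, Veh-Glut 3, TFBTBOA-Glut 1 or TFBTBOA-Glut 2.

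The largest fall among the called genes was in Arrdc3, an alpha-arrestin that takes membrane receptors into endosomes. Its counts were 572, 829 and 854 in the Veh-Glut libraries and 221, 248 and 326 in the TFBTBOA-Glut libraries. The groups were far apart, and the log2 fold change was -1.50 ± 0.19 (SE, adjusted p = 0.00336), or 2.82-fold lower. The TFBTBOA-Glut libraries were also below the Veh-Veh libraries (636, 605 and 637). Of the other alpha-arrestins, Txnip, a regulator of glucose uptake, was low and overlapping (73.7, 78.0 and 26.9 in the Veh-Glut libraries and 19.6, 31.0 and 26.9 in the TFBTBOA-Glut libraries). Its log2 fold change was -1.05 ± 0.44 (SE, adjusted p = 0.234), and that of Arrdc1 was 1.16 ± 0.29 (SE, adjusted p = 0.0677).

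Other genes among the 8 largest falls were Ankrd34c (-1.05 ± 0.24, adjusted p = 0.0485), Eln (-1.04 ± 0.20, adjusted p = 0.021), Rflna (-1.02 ± 0.23, adjusted p = 0.044) and Lhfpl3 (-1.02 ± 0.19, adjusted p = 0.02). Eln, elastin, had counts of 295, 302 and 222 in the Veh-Glut libraries and 113, 147 and 135 in the TFBTBOA-Glut libraries. Its TFBTBOA-Glut libraries were below the Veh-Veh libraries too (209.8, 210.0 and 196). Eln lost its call without Veh-Glut 2 or TFBTBOA-Glut 1, and Ankrd34c, Rflna and Lhfpl3 lost theirs in 4 of the 6 fits that leave out 1 library. Egr1 and Klf10, zinc finger genes of the immediate early class, were the 2 called of 20 on that list (median 0.00). Of all 14266 genes tested, 311 were called. The list went both ways, with 10 genes positive and 10 negative. Without overlap, 5 were higher and 5 lower (11.2% and 12% of all genes). Nr4a3 did not pass the main test, but its log2 fold change was between 1.08 and 1.57 in the alternatives. It passed in 3 of 17 of them, DESeq2 and the single fit over all 12 libraries among them. Klf10 was 1.48-fold lower, a log2 fold change of -0.57 ± 0.08 (SE, adjusted p = 0.006), and Egr1 had -0.48 ± 0.09 (SE, adjusted p = 0.0188). Klf10 kept its call whichever library was left out, and Egr1 lost it without Veh-Glut 2, Veh-Glut 3 or TFBTBOA-Glut 2.

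Ctgf, a matricellular protein and a standard target of YAP and TEAD, had the smallest p of all genes. Its counts were 167, 201 and 192 in the Veh-Glut libraries and 1019, 868 and 834 in the TFBTBOA-Glut libraries. The groups were far apart and each was tight, and the log2 fold change was 2.27 ± 0.14 (SE, adjusted p = 3.05e-05), or 4.84-fold higher. Crim1, a membrane protein that binds BMPs, had 303, 305 and 329.9 in the Veh-Glut libraries and 869.9, 877 and 783 in the TFBTBOA-Glut libraries, a rise of 1.43 ± 0.12 (SE, adjusted p = 0.000304). These were the only 2 called of 22 YAP-TEAD targets tested (9.09%, median 0.17), and both were called whichever library was left out. Lats2, a Hippo kinase and itself a target, had a log2 fold change of 0.50 ± 0.12 (SE, adjusted p = 0.061). The Crim1 promoter, chr17:78199998-78200247 on the plus strand of GRCm38.p6, is printed as that of the target with the largest rise for which RefSeq held an entry. Capitals mark a CCAAT match 116 bases and the TEAD letters GGAATG 79 bases before the start, both on the strand shown.
Crim1: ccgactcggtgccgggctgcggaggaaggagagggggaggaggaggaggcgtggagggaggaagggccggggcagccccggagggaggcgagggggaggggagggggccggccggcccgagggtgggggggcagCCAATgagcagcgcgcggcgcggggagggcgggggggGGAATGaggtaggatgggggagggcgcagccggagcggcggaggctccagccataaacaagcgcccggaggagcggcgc

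Igfbp5, which binds insulin-like growth factors in the extracellular space, rose as clearly. It had counts of 467, 467 and 439 in the Veh-Glut libraries and 1504, 1402 and 1668 in the TFBTBOA-Glut libraries. The spread within each group was small beside the gap, a log2 fold change of 1.73 ± 0.11 (SE, adjusted p = 3.05e-05), or 3.32-fold. Of 16 genes of insulin and IGF signalling tested, 3 were higher and none was lower (18.8%, median 0.32). The others were Igf2r, the receptor that clears IGF2 (0.60 ± 0.12, adjusted p = 0.029), and Irs2, an insulin receptor substrate (0.51 ± 0.12, adjusted p = 0.0455). Only Igfbp5 kept its call without Veh-Glut 2, Veh-Glut 3 or TFBTBOA-Glut 1.

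Extracellular matrix genes went both ways, with 5 higher and 1 lower of 29 tested (20.7%, median 0.17). Sparc, a collagen-binding matricellular protein, had counts of 9266, 7993 and 8612 in the Veh-Glut libraries and 16489.8, 17382 and 15214 in the TFBTBOA-Glut libraries. The inhibitor-treated libraries were also above the Veh-Veh libraries (11908, 11985 and 11223), a log2 fold change of 0.92 ± 0.08 (SE, adjusted p = 0.000304). Thbs1, thrombospondin 1, had 96.2, 121 and 85.3 in the Veh-Glut libraries and 263, 334 and 436 in the TFBTBOA-Glut libraries. It was 3.35-fold higher (1.75 ± 0.23, adjusted p = 0.00336). Col18a1, a basement membrane collagen, changed by 0.72 ± 0.10 (SE, adjusted p = 0.00486), Col5a1 by 0.72 ± 0.13 (SE, adjusted p = 0.02) and Lama4, a laminin chain, by 0.70 ± 0.16 (SE, adjusted p = 0.0444). Eln was the lower member.

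Annexins and S100 proteins bind membranes with calcium, and caveolae are small pits of the cell surface. Of 20 genes of this list tested, 8 were higher and none was lower (40.0%), 19 had a positive fold change and the median was 0.43. Ptrf, which codes for cavin-1 and is needed to form caveolae, had counts of 1869.8, 1927 and 1831 in the Veh-Glut libraries and 3362, 3519.8 and 3380.2 in the TFBTBOA-Glut libraries. Its groups were tight and did not overlap, a log2 fold change of 0.87 ± 0.08 (SE, adjusted p = 0.00038). Cav1, the caveola coat protein, had 18.7, 6.33 and 15.8 in the Veh-Glut libraries and 49.8, 63.1 and 76.8 in the TFBTBOA-Glut libraries, with a log2 fold change of 2.24 ± 0.45 (SE, adjusted p = 0.0276) from a low level. Anxa2 (0.63 ± 0.08, adjusted p = 0.00336) and Anxa5 (1.00 ± 0.13, adjusted p = 0.00336), calcium-dependent membrane binding proteins, rose with S100a10, the partner of annexin A2 (0.48 ± 0.11, adjusted p = 0.0454), and with Anxa6, S100a11 and Sdpr. Anxa5 counts were 904, 699 and 961 in the Veh-Glut libraries and 1791, 1587 and 1706 in the TFBTBOA-Glut libraries. The number called was 5 without Veh-Glut 2, 5 without Veh-Glut 3 and 4 without TFBTBOA-Glut 1. The list made up 0.129% to 0.142% of a Veh-Glut library and 0.190% to 0.200% of a TFBTBOA-Glut library.

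Actin and adhesion genes followed in smaller numbers. Of 27 actin cytoskeleton genes, 4 were higher and none was lower (14.8%, median 0.19). Pdlim4, an actin-associated LIM protein, had 268, 330.0 and 235 in the Veh-Glut libraries and 709, 639 and 571 in the TFBTBOA-Glut libraries. Each TFBTBOA-Glut library was above each Veh-Glut library, with a log2 fold change of 1.21 ± 0.16 (SE, adjusted p = 0.00363), while Cald1, caldesmon, changed by 0.45 ± 0.08 (SE, adjusted p = 0.02), Gsn, gelsolin, by 0.59 ± 0.11 (SE, adjusted p = 0.0205) and Tmsb4x, thymosin beta 4, by 0.40 ± 0.09 (SE, adjusted p = 0.0425). Without Veh-Glut 2, Veh-Glut 3 or TFBTBOA-Glut 1 only 1 of the 4 was called, and 2 without TFBTBOA-Glut 2. Of 13 integrins tested, 2 were higher (15.4%, median 0.35). Itga9, the alpha 9 chain, had 11.8, 25.3 and 6.49 in the Veh-Glut libraries and 74.3, 103 and 72.0 in the TFBTBOA-Glut libraries, a 6.11-fold rise from a low level (2.61 ± 0.47, adjusted p = 0.0172). Itga4, the alpha 4 chain, had 449, 609 and 674 in the Veh-Glut libraries and 778, 1085 and 1195 in the TFBTBOA-Glut libraries (0.82 ± 0.18, adjusted p = 0.0453). Leaving out any 1 library left at most 1 of these 2 called, and none without TFBTBOA-Glut 2.

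The largest rises by fold were in genes of low abundance. Npvf, a precursor of RF-amide neuropeptides, had counts of 7.86, 3.16 and 0.927 in the Veh-Glut libraries and 87.4, 63.1 and 59.5 in the TFBTBOA-Glut libraries. The gene was near the bottom of the counts in Veh-Glut and clearly present in each TFBTBOA-Glut library, a log2 fold change of 4.08 ± 0.60 (SE, adjusted p = 0.00638). Rgs16, which speeds GTP hydrolysis by G alpha proteins, had 26.5, 35.8 and 31.5 in the Veh-Glut libraries and 196, 255 and 216 in the TFBTBOA-Glut libraries and was 6.92-fold higher (2.79 ± 0.25, adjusted p = 0.000321). Stk32a, a serine/threonine kinase (2.56 ± 0.40, adjusted p = 0.0089), Kcnj15, an inward rectifier potassium channel (2.54 ± 0.56, adjusted p = 0.0425), Dusp27 (2.31 ± 0.33, adjusted p = 0.006) and Colq, the collagen tail of acetylcholinesterase (2.28 ± 0.41, adjusted p = 0.0177), completed the 8 largest with Itga9 and Ctgf. Rgs16 was called in every fit with a library left out, as was Stk32a. Kcnj15 lost its call in 5 of those 6 fits, and Npvf, Dusp27 and Colq lost theirs without TFBTBOA-Glut 1. Sept4, a septin of moderate abundance, had 809, 716 and 785 in the Veh-Glut libraries and 1664, 1769 and 1690.1 in the TFBTBOA-Glut libraries, a rise of 1.15 ± 0.10 (SE, adjusted p = 0.000304) that held in every such fit.

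Lysosomal, antioxidant and interferon-induced genes each had a few rises. Of 31 lysosome genes, 27 had a positive fold change (median 0.16) and 3 were called (9.68%): the cathepsins Ctsh (0.71 ± 0.12, adjusted p = 0.0124) and Ctsl (0.65 ± 0.14, adjusted p = 0.0374) and the proton pump subunit Atp6v1e1 (0.43 ± 0.10, adjusted p = 0.0499). Ctsh had counts of 649, 534 and 599 in the Veh-Glut libraries and 912, 982 and 1011 in the TFBTBOA-Glut libraries. Of 25 antioxidant and iron genes, 3 were called (12.0%, median 0.15), namely Sod3, the extracellular superoxide dismutase (0.87 ± 0.14, adjusted p = 0.00921), Gpx1, a glutathione peroxidase (0.49 ± 0.08, adjusted p = 0.0149), and Cp, the ferroxidase ceruloplasmin (0.41 ± 0.09, adjusted p = 0.0483). Of 19 interferon-induced genes, 2 were called (10.5%, median 0.14): Tmem173, the DNA sensing adaptor STING (0.55 ± 0.09, adjusted p = 0.00893), and Ifitm3 (0.61 ± 0.13, adjusted p = 0.0299). Without Veh-Glut 2 none of these 8 was called, and without TFBTBOA-Glut 1 the counts were 0, 1 and 0. Without Veh-Glut 3 they were 0, 1 and 1, and without TFBTBOA-Glut 2 they were 1, 3 and 2. Without Veh-Glut 1, 5 lysosome genes were called.

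Some genes that mark cell identity passed the test, at shares of their lists above the 2.18% of all genes tested. Of 22 NSC genes, 2 were higher (9.09%, median 0.12): Id3, a BMP-responsive inhibitor of basic helix-loop-helix factors (0.38 ± 0.08, adjusted p = 0.0398), and the growth factor receptor gene Fgfr2 (0.63 ± 0.14, adjusted p = 0.0466). Vim, vimentin, had 21073, 18432 and 17658 in the Veh-Glut libraries and 26148, 31240.4 and 22277 in the TFBTBOA-Glut libraries, a log2 fold change of 0.47 ± 0.11 (SE, adjusted p = 0.0519). Vim did not pass the main test but passed in 10 of 17 alternatives, DESeq2 and the edgeR fits among them. Of 15 astrocyte genes, 3 were higher (20.0%, median 0.08), namely Cst3, cystatin C (0.63 ± 0.11, adjusted p = 0.0141), Clu, clusterin (0.56 ± 0.13, adjusted p = 0.0469), and Glul, already described. The astrocyte list went both ways, with 4 genes higher and 3 lower without overlap (11.2% and 12% of all genes). S100b (125 to 147 in Veh-Glut, 58.0 to 87.4 in TFBTBOA-Glut) and Gja1 (3075 to 3361, 2716 to 2794) were lower without overlap but did not pass the test. Of 13 neuroblast and neuron genes, Cd24a, a surface glycoprotein, was higher (7.69%, median 0.37), at 1423, 1367 and 1427 in the Veh-Glut libraries and 1966, 2656 and 2104 in the TFBTBOA-Glut libraries (0.66 ± 0.11, adjusted p = 0.0149). Of 11 oligodendrocyte lineage genes, Lhfpl3 was lower (9.09%, median -0.40). Without Veh-Glut 2 or Veh-Glut 3 none of the genes of these 4 lists was called, and without TFBTBOA-Glut 1 only Cd24a was. Without TFBTBOA-Glut 2 the NSC, astrocyte and neuroblast lists had 1 call each and the oligodendrocyte list none, and without Veh-Glut 1 the last had 3.

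**Figure D3:**
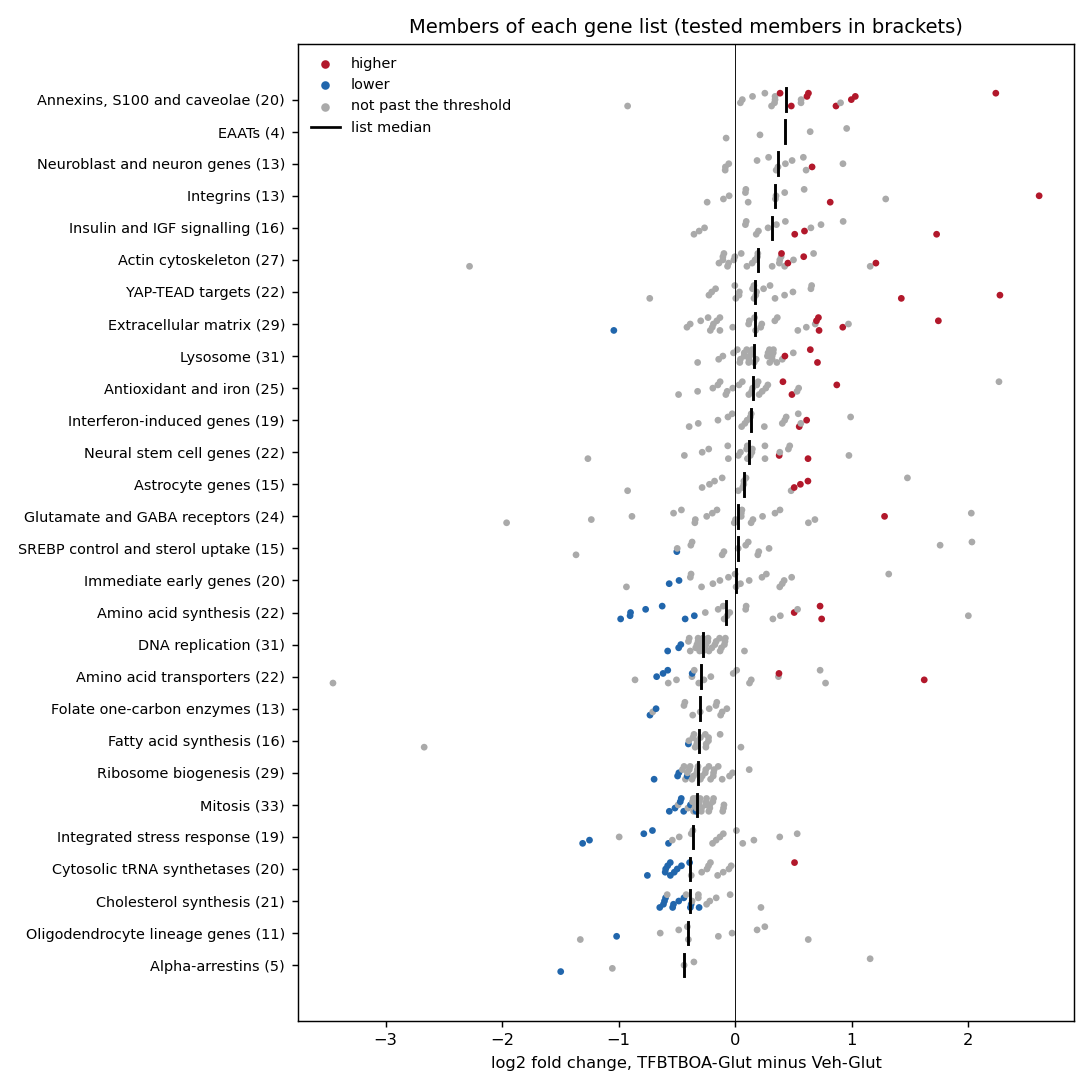
Each point is a tested member of 1 of the 28 gene lists, placed by its log2 fold change of TFBTBOA-Glut minus Veh-Glut, with called members in red (higher) or blue (lower), members not past the threshold in grey and the median of each list as a black line. The medians run from -0.44 for the 5 alpha-arrestins to 0.43 for the 20 annexin, S100 and caveola genes.

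The same inhibitor was tested in cells given no glutamate, with 3 TFBTBOA-Veh against 3 Veh-Veh libraries, none of them shared with the comparison above. There 147 genes were called, 1.03% of the genes tested, of which 132 were higher (0.925%) and 15 were lower (0.105%). Of the 175 genes higher with glutamate present, 65 were also called higher without it, which is 37.1% of the 175 and 49.2% of the 132. Their fold change without glutamate was positive in 170 of 175 (97.1%, against 49.5% of all genes tested), and its median was 0.45. Of the 136 genes lower with glutamate present, 6 were also called lower without it, 4.41% of the 136 and 40.0% of the 15. Their fold change without glutamate was negative in 116 (85.3%, against 50.5% of all genes), with a median of -0.17. The calls without glutamate ranged from 29 to 81 higher and from 0 to 5 lower when 1 library was left out, the fewest higher without TFBTBOA-Veh 1 and 0 lower without Veh-Veh 1.

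Ctgf and Igfbp5 rose by like amounts in both settings. Ctgf had counts of 217, 219.5 and 226 in Veh-Veh and 1052, 900.4 and 978 in TFBTBOA-Veh, a log2 fold change of 2.14 (adjusted p = 4.86e-06, limma), beside 2.27 with glutamate. Igfbp5 had 444, 531 and 457 against 1692, 1775 and 1735, a log2 fold change of 1.86 (adjusted p = 4.86e-06, limma), beside 1.73. The test of the difference between the 2 inhibitor effects gave 0.14 ± 0.18 (SE) for Ctgf and -0.13 ± 0.14 for Igfbp5, with adjusted p of 0.87 and 0.841 in limma. Rgs16 (2.04 without glutamate), Thbs1 (1.20), Col18a1 (0.72), Ptrf (0.65), Anxa5 (0.67), Anxa2 (0.34), Sparc (0.43), Crim1 (0.70), Sept4 (0.54) and Npvf (2.72) were called higher without glutamate too, as were Dusp27 (2.48), Colq (2.57), Sod3 (0.68) and Cst3 (0.56). By list, 4 matrix genes and 3 annexin, S100 and caveola genes were called higher without glutamate, and the medians of those lists there were 0.31 and 0.25.

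The genes that fell, which were chosen by their value with glutamate, mostly had smaller fold changes without it. The genes that rose were chosen in the same way, and their median was 0.45 without glutamate beside 0.74 with it. The difference passed a test for only 2 of the genes that fell, described next, and for none of those that rose. Asns had 4412, 5270.2 and 4059 in Veh-Veh and 3867, 5107 and 4437 in TFBTBOA-Veh, overlapping, with a log2 fold change of -0.04 beside -0.90 with glutamate. Bcat1 changed by -0.17 beside -0.98, Shmt2 by -0.07 beside -0.73, Chac1 by -0.20 beside -1.31 and Lars by -0.14 beside -0.75. Arrdc3 was called lower in both, at -0.78 and -1.50, as was Klf10, at -0.38 and -0.57. By list, the median without glutamate was 0.01 for sterol synthesis, -0.13 for tRNA synthetases and -0.10 for the integrated stress response, and it was -0.22 for mitosis, -0.18 for DNA replication and -0.22 for ribosome biogenesis, beside 0.00 for all genes. Of those lists, mitosis had 2 genes called lower without glutamate, DNA replication 1 and the others 0.

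Only 2 genes passed the test of the difference itself, 0.014% of the genes tested, and 991 had an unadjusted p under 0.05. Both are sterol genes. Hmgcs1 had 12528, 12004 and 13646 in Veh-Veh and 12971, 13381 and 13205 in TFBTBOA-Veh, and the groups overlapped. Its inhibitor effect was 0.05 without and -0.54 with glutamate, a difference of -0.59 ± 0.08 (SE, adjusted p = 0.0263, limma). Cyp51 had 8637, 8317 and 8802 in Veh-Veh, 10172, 10017 and 9936 in TFBTBOA-Veh, 12027, 12791 and 12615 in Veh-Glut and 10176, 9522 and 10535 in TFBTBOA-Glut. The inhibitor-treated libraries were higher than their controls without glutamate and lower with it, at 0.23 and -0.31, and the difference was -0.54 ± 0.08 (SE, adjusted p = 0.0263, limma). The number of genes called was 2 without Veh-Glut 1 or TFBTBOA-Glut 3, 1 without Veh-Veh 3, and 0 without any 1 of the other 9 libraries.

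The next genes by p of the difference did not pass. Asns had a difference of -0.87 and Gm37254, an entry with no described product, of 3.24, both with an adjusted p of 0.11 in limma. Gm37254 had 16.7, 16.9 and 17.6 in the Veh-Glut libraries and 53.1, 79.2 and 53.8 in the TFBTBOA-Glut libraries, without overlap, against 52.2, 49.8 and 42.1 in Veh-Veh and 28.4, 7.99 and 20.1 in TFBTBOA-Veh. It was 3.43-fold higher with the inhibitor where glutamate was present (1.78 ± 0.35, adjusted p = 0.0261), and its groups were lower without overlap where glutamate was absent, at -1.46 (adjusted p = 0.218, limma). Lars (-0.61), Shmt2 (-0.66), Mthfd2 (-0.54) and Pdlim4 (1.13) also had an adjusted p near 0.11. Itga9 rose with glutamate (2.61) and had a log2 fold change of -0.08 without it, but the difference of 2.69 did not pass (adjusted p = 0.285, limma).

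**Figure D4:**
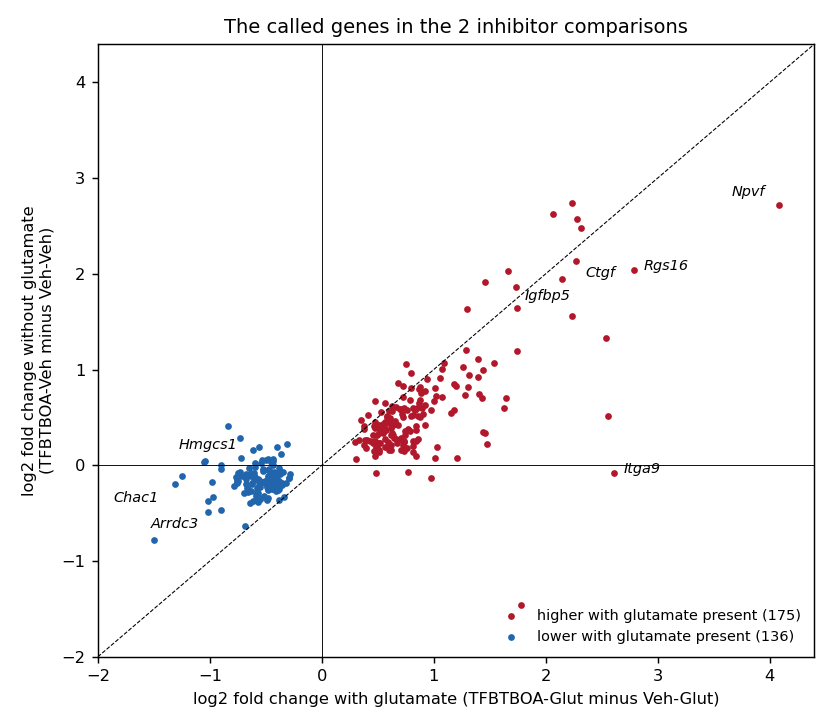
Each point is 1 of the 311 genes called with glutamate present, at its log2 fold change with glutamate (horizontal) and without glutamate (vertical), the 2 axes coming from separate libraries. The 175 higher genes lie mostly above 0 on both axes, with a median of 0.45 on the vertical axis against 0.74 on the horizontal (the dashed line marks equal change), and the 136 lower genes have a median of -0.17 on the vertical axis against -0.52 on the horizontal.

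The effect of glutamate alone (Veh-Glut minus Veh-Veh) uses the same Veh-Glut libraries, so its values are given beside those above without a test of likeness. For glutamate alone 23 genes were called (0.161% of the genes tested), of which 19 were higher (0.133%) and 4 were lower (0.028%). Asns was 0.74 for glutamate alone and -0.90 for the inhibitor in its presence, Hmgcs1 was 0.53 and -0.54, Bcat1 was 0.71 and -0.98, and Lars was 0.57 and -0.75. Sparc was -0.44 and 0.92, and Sept4 was -0.66 and 1.15. Ctgf (-0.25), Igfbp5 (-0.06), Ccnb1 (0.20) and Arrdc3 (0.24) did not pass the test for glutamate alone. As shares of the library, the sterol list took 0.697% to 0.725% of counts in Veh-Glut and 0.523% to 0.569% in TFBTBOA-Glut, against 0.505% to 0.557% in Veh-Veh. The tRNA synthetases took 0.575% to 0.624% in Veh-Glut and 0.444% to 0.460% in TFBTBOA-Glut, against 0.486% to 0.518% in Veh-Veh.

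**Figure D5:**
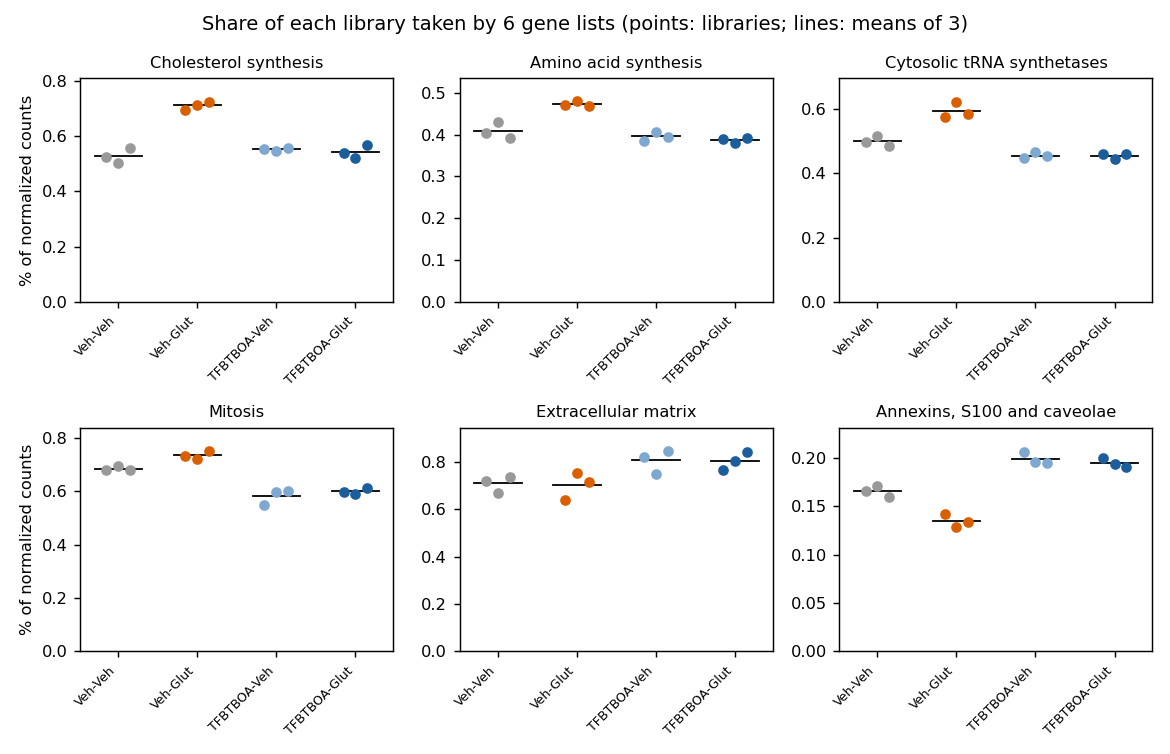
The share of all normalized counts taken by 6 gene lists in each of the 12 libraries (points), with the mean of the 3 libraries of each group (lines), on axes that start at 0. In the sterol, amino acid, tRNA synthetase and mitosis panels the 3 TFBTBOA-Glut libraries lie below the 3 Veh-Glut libraries, and in the annexin panel they lie above, as they do in the matrix panel.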

How the data were processed

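RNA was made into libraries with a polyA-primed SMART-Seq kit. Per the authors' methods and processing notes, reads were trimmed, cleared of ribosomal and mitochondrial reads, aligned with HISAT2 2.0.6 (base calls from CASAVA 1.8.2) and counted per gene with featureCounts. The notes name GRCh38 and the methods a mouse build, and counting is described as stranded although the kit does not mark strand, so overlapping and antisense genes are uncertain. The deposited signal values are read counts that the authors divided by a size factor for each library. Reads were recovered as whole multiples in all 6 libraries of the main comparison (100% of values within 0.05 of a whole number). The 183 entries of the table that share a symbol were kept apart.

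The tests were limma 3.58.1 (R 4.3.3) on log2(value + 1), fitted on the libraries of each comparison, for genes with a mean of 10 or more, with Benjamini-Hochberg adjustment over all genes and a threshold of 0.05. The difference between inhibitor effects was fitted on 12 libraries. Alternatives were other pseudocounts and minimums, TMM scaling, a replicate block, a single fit, each library left out, and edgeR 4.0.16 and DESeq2 1.42.0 on recovered reads. On simulated data made from the main comparison's 14266 genes, limma recovered 88% of 2-fold and 53% of 1.5-fold changes, and 6 of its 147 calls were unchanged genes. The changed genes were drawn only from the more abundant genes, and the counts of each library were drawn independently. These shares therefore do not cover low genes or the loss of calls seen when 1 library was left out.

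The genes described in full were the 8 of largest rise and fall and the 5 of smallest p in each direction, the 3 of smallest p in each list and calls against a list's majority, the 6 of smallest p for the difference, the EAAT genes and Fasn. Other called members of a list were named after their values were seen. The comparison, the 28 lists (599 genes, 552 tested) and the motifs were chosen with earlier results of these data known. Promoter sequences are from RefSeq GRCm38.p6. A few members of the lists are counted but not reported by name here.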

Additional observations from a re-analysis of the deposited data

Results flagged for a closer look

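Hmgcs1 and Cyp51, both of sterol synthesis, were the genes whose response to TFB-TBOA differed between cells with and without glutamate by a test of the difference. The inhibitor effect with glutamate minus that without it was -0.59 on the log2 scale for Hmgcs1 and -0.54 for Cyp51, each with an adjusted p of 0.0263 in limma. The Veh-Glut libraries were the highest of the 4 groups for both genes.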

How the results depend on the processing

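None of the 80 called genes described in full changed direction under any alternative run for the main comparison. The other called genes named above were not followed in this way. Of the 80, 8 kept their call under every setting (Rgs16, Ctgf, Igfbp5, Crim1, Sept4, Aldh18a1, Mthfd2 and Ptrf) and Qars under all but leaving out a library. With 1 library left out the counts ran from 43 to 218 higher and from 16 to 226 lower with glutamate, from 29 to 81 higher and from 0 to 5 lower without it, and from 0 to 2 lower for the difference. With no minimum, 28902 genes were tested, and 29 were higher and 14 lower with glutamate, 14 and 9 without it, and 0 for the difference. A single fit over all 12 libraries gave 376 higher and 351 lower with glutamate, and DESeq2 gave 428 and 434. edgeR with TMM gave 174 and 123. Of 23 genes followed in the same way that were not called, 5 passed under no setting. Vim passed in 10 of 17 alternatives, and Grm5 and Stard4 in 7 each. Slc1a1 passed only in the single fit over all 12 libraries (adjusted p = 0.0385, limma). By list, DESeq2 called more than the main test in mitosis (20 lower), actin (10 higher), matrix (9 higher), lysosome (8 higher) and fatty acid synthesis (6 lower).

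The replicate block gave 230 higher and 229 lower genes with glutamate, 245 and 80 without it, and 2 and 12 for the difference. Over all pairs of the 4 groups, r across genes between the deviations of same-numbered libraries ran from -0.04 to 0.08 and was over 0.1 in 0 of 18 pairs. It was above 0 in every pair numbered 1 (0.017 to 0.051) and in every pair numbered 3 (0.057 to 0.084). These r were small, so the numbers were not treated as pairs and the block is an alternative only. Whether same-numbered wells shared a batch was not tested. In Veh-Veh and TFBTBOA-Veh every library correlated best with its own number, which is a hint from the data, and in the main comparison this was not so.

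At this depth the SE of the fold change (log2) had a median of 0.17 over genes, and 2613 genes had an unadjusted p under 0.05 against 311 called. The cause of the spread between settings was not tested.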
